A study of Mus musculus with 4 samples.

Results

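Neutrophil granule protein genes were examined on arrays of Meis1-KO and Meis1-WT LSK cells, over every non-control probe whose gene name on the array was *Mpo*, *Elane* (or its older symbol *Ela2*), *Prtn3*, *Ctsg*, *S100a8*, *S100a9*, *Ltf*, *Camp* or *Ngp*. Of 41174 probes on the array, 10 belonged to these 9 genes, with a pair for *Ltf* and 1 for each other gene. LSK cells, which the labels also call KSL cells, are sorted from bone marrow as negative for lineage antigens and positive for Sca-1 and c-Kit, and contain hematopoietic stem cells (HSCs) and early progenitors. The Meis1-KO group came from Mx1-Cre-positive Meis1fl/fl mice and the Meis1-WT group from Mx1-Cre-negative Meis1fl/fl mice, so that both carried the floxed alleles, all on the C57BL/6J background. Mice were 4 to 8 weeks old when injections began, poly(I:C) was given 4 times at 1.5 ug/g with an interval of 1 day, and cells were collected 1 week after poly(I:C). The sample labels give this treatment for both genotypes, whereas the series' design text and the microarray methods call the controls sham-treated. Mx1-Cre is switched on by interferon and is not limited to hematopoietic cells. Each genotype was represented by 2 pools of 6 mice with 1 array each. In a pooled sorted population, fewer cells of a type and less RNA per cell cannot be told apart.

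Neutrophils store their antimicrobial proteins in granules that are filled in order as the cell matures. The primary (azurophil) granules form at the promyelocyte stage and receive the peroxidase and serine proteases encoded by *Mpo*, *Elane*, *Prtn3* and *Ctsg*. The specific granules form later, at the myelocyte and metamyelocyte stages, and receive proteins such as those of *Ltf*, *Camp* and *Ngp*, while *S100a8* and *S100a9*, which encode the cytosolic calcium-binding protein calprotectin, rise in the same later stages. Transcripts of some primary granule genes are already made in progenitors of the granulocyte and monocyte lineage. The 4 primary granule genes and the 5 later genes are therefore described apart.

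The main pattern lay between the first and second replicates and was seen in both genotypes. Replicate number, pool, slide and scan day coincided, so they cannot be told apart. *S100a8*, *S100a9* and *Ngp* were several-fold higher in the first replicate than in the second of either genotype. *Ltf* and *Camp* were well above background in the first replicates only, whereas *Mpo*, *Elane*, *Prtn3* and *Ctsg* did not pass the criteria between replicates. Between genotypes, 1 of the 7 granule gene probes tested passed the criteria of the study, the *Elane* probe, which was lower in Meis1-KO cells, against 0.736% of all tested probes. These criteria ask for more than 2-fold and a p below 0.01 that is not adjusted, here from limma. The probes on which these results turn are 60-base oligonucleotides. They are printed 5' to 3' as the array's design gives them, for the gene that passed between genotypes and for 4 of the later genes, with positions on mm9.
Elane A_51_P144551, chr10:79350763-79350822, plus strand: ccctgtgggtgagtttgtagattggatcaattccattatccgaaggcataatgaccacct
S100a8 A_51_P256827, chr3:90473778-90473837, plus strand: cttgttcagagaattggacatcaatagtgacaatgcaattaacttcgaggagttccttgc
Ltf A_51_P188141, chr9:110938264-110941314, plus strand: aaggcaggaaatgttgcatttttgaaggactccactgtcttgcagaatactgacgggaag
Camp A_51_P180423, chr9:109749992-109750051, minus strand: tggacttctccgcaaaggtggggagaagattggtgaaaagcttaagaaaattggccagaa
Ngp A_52_P429450, chr9:110324266-110324814, plus strand: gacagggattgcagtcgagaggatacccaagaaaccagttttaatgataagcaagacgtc
The *Ltf* and *Ngp* probes span 3051 and 549 bases of the genome with 60 bases of sequence, so each crosses at least 1 intron. The *Mpo* and *Prtn3* probes, with spans of 776 and 817 bases, do so as well.

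*Elane* and *Prtn3* are neighbors on chromosome 10, *S100a8* and *S100a9* on chromosome 3, and *Ltf*, *Camp* and *Ngp* lie on chromosome 9. The 9 genes all had an entry in the RefSeq promoter table (GRCm38.p6), and the 250 bases before the annotated start were searched on both strands for 3 short motifs. The motifs were TTNNGNAA, a form of the site of C/EBP factors, which drive granulocyte differentiation, GAGGAA, the core of the site of PU.1, and TGACAG, a form of the MEIS site. No matches of different motifs overlapped in these windows. TTNNGNAA was present upstream of 4 of 5 later genes and of 0 of 4 primary granule genes, and of 36.8% of all 32851 promoters in the table. GAGGAA was present upstream of 4 of 4 primary granule genes and 2 of 5 later genes, against 23.3% of all promoters. TGACAG was present upstream of *Ctsg* and *S100a9*, against 15.9% of all promoters. A match of letters is a description of the sequence and no sign that a factor binds there. The upstream windows of the 5 later genes, which were all higher in the first replicates, and of *Elane* are shown on the strand of the gene, with matches in capitals.
S100a8, chr3:90668821-90669070, plus strand: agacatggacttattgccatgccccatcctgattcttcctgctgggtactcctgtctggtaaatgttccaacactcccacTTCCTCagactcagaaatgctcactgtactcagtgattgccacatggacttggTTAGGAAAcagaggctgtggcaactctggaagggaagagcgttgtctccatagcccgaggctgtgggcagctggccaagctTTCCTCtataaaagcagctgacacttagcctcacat
S100a9, chr3:90695722-90695971, minus strand: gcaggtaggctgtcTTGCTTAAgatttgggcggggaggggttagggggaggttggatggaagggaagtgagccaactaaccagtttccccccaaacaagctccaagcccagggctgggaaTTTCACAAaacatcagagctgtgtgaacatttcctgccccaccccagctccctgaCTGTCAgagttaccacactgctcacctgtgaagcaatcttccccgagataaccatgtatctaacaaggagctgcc
Ltf, chr9:111019042-111019291, plus strand: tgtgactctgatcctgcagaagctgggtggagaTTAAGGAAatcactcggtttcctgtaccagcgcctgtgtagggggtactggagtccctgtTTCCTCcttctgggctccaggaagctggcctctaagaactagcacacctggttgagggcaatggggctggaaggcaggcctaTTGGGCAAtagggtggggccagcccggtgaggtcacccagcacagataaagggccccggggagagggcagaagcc
Camp, chr9:109849457-109849706, minus strand: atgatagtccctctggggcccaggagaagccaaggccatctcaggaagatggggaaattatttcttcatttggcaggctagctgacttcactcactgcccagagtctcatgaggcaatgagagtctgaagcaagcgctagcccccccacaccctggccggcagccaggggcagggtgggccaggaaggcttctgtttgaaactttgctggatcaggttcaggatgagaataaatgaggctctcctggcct
Ngp, chr9:110419558-110419807, plus strand: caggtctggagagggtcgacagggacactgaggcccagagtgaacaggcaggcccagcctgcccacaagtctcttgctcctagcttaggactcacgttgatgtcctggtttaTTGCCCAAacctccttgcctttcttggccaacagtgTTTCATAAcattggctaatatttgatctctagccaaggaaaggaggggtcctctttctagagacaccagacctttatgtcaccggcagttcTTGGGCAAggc
Elane, chr10:79886062-79886311, plus strand: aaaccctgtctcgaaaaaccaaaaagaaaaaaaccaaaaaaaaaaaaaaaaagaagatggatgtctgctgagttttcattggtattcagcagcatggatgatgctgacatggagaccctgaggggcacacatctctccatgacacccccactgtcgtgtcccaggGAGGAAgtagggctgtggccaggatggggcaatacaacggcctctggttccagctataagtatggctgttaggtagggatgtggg
*Camp* held no match. The closest TTNNGNAA match to a start was that of *Ngp*, 11 to 4 bases upstream. In *S100a8*, a GAGGAA match on the other strand lay 36 to 31 bases upstream, and in *Elane* the match on the gene's strand lay 85 to 80 bases upstream.

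Values are log2 processed signals after subtraction of each array's 75th percentile, and a difference is always a difference of these log2 values. Slide 1 carried the first replicate of both genotypes, slide 2 the second, and each slide was scanned on its own day, so that slide, scan day, replicate number and pool cannot be told apart. The share of probes well above background was 49.2% on the array Meis1-KO 2 and 54.7% to 57.4% on the other 3, and no spot was saturated. Meis1-KO 2 correlated with the other arrays at 0.891 to 0.916 across probes, and the other 3 at 0.956 to 0.967 with each other. *Meis1* itself was lower in both Meis1-KO pools than in both Meis1-WT pools at both of its probes, with values at A_52_P670612 of 0.28 and 0.24 in Meis1-KO and 1.04 and 1.47 in Meis1-WT cells. This difference of -0.998 was not past the criteria, and where the probe lies relative to the deleted exon 8 was not analysed here. The LSK phenotype was checked on 13 HSC and progenitor markers, all of which were well above background on all 4 arrays, among them *Kit*, *Ly6a* (Sca-1) and *Cd34*. Between genotypes, the criteria were met by 0.736% of 22006 tested probes (132 lower and 30 higher in Meis1-KO cells), and 0 had an adjusted p under 0.05 by limma, where 618 had an unadjusted p under 0.05. A fit that held the slide as a block called 1.92% of probes by the criteria. In that fit the adjusted p of limma was below 0.05 at 34 probes, none of them of a granule gene. A probe was tested between genotypes if either genotype had it well above background on both of its arrays, and 7 of the 10 granule gene probes passed this filter. *Camp* and both *Ltf* probes did not, because on slide 2 they were dim in both genotypes.

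**Figure D1:**
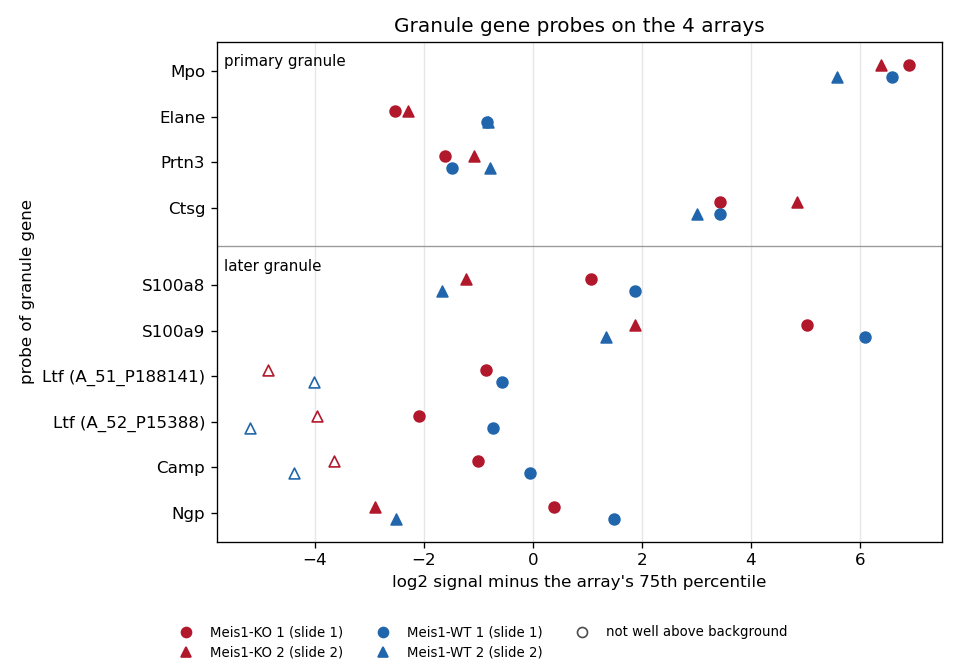
Log2 signal minus the array's 75th percentile (x axis) of the 10 granule gene probes (y axis) on each of the 4 arrays, with Meis1-KO in red, Meis1-WT in blue, slide 1 as circles and slide 2 as triangles. Open symbols are not well above background. The later genes separate by slide in both genotypes, with *S100a9* at 5.03 and 6.09 on slide 1 and at 1.87 and 1.34 on slide 2, and *Elane* separates by genotype.

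Among the primary granule genes, *Elane*, which encodes neutrophil elastase, had log2 values of -2.53 and -2.28 in Meis1-KO 1 and 2 and of -0.84 and -0.81 in Meis1-WT 1 and 2. The groups did not overlap, but with 2 arrays per genotype the smallest two-sided p of an exact permutation test is 0.333. The 4 values were well above background, with signals before scaling of 25.21 and 18.31 in Meis1-KO 1 and 2. The difference was -1.58 (standard error 0.42, 95% interval -2.61 to -0.55), or 2.98-fold lower in Meis1-KO cells. It was -1.69 on slide 1 and -1.46 on slide 2, a fall of similar size on both slides. Of the 22006 tested probes, 4609 were lower in Meis1-KO cells on both slides. The unadjusted p was 0.0093 by limma, and the p adjusted over all tested probes was 0.983, so *Elane* met the study's criteria without passing the correction. With the slide as a block, *Elane* also met the criteria (adjusted p = 0.480 by limma). The call rests on a p close to the threshold. It was lost under 4 other settings (median scaling, normexp background correction, no filter on dim probes, an intensity trend) and when Meis1-KO 1, Meis1-WT 1 or Meis1-WT 2 was left out, although *Elane* stayed lower in Meis1-KO cells in each of the 15 settings, from -1.95 to -0.50.

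*Mpo* encodes myeloperoxidase, the most abundant azurophil granule protein. Its log2 values were 6.90 and 6.38 in Meis1-KO cells and 6.58 and 5.58 in Meis1-WT cells, with all 4 arrays well above background. The groups overlapped, since Meis1-WT 1 lay above Meis1-KO 2. The difference was 0.56 (standard error 0.53, 95% interval -0.72 to 1.84, adjusted p = 0.983 by limma), opposite in sign to that of *Elane*, and it was positive on both slides (0.32 and 0.80). Its size depended on single arrays, at 0.057 without Meis1-WT 2, 1.06 without Meis1-WT 1 and 0.301 without Meis1-KO 1, and was 0.184 without scaling, 0.246 under quantile normalization and 0.327 under normexp correction. *Prtn3*, which encodes proteinase 3 and lies beside *Elane*, had values of -1.61 and -1.08 in Meis1-KO cells and -1.48 and -0.78 in Meis1-WT cells. These overlapped too, and the difference was -0.22 (standard error 0.49, 95% interval -1.40 to 0.96). Its sign turned under normexp correction (0.077) and without Meis1-KO 1 (0.050) or Meis1-WT 2 (0.13).

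*Ctsg*, which encodes the serine protease cathepsin G, had values of 3.43 and 4.84 in Meis1-KO cells and 3.44 and 3.004 in Meis1-WT cells. A single array, Meis1-KO 2, stood above the other 3, which lay within 0.43 of each other. On slide 1 the genotypes differed by -0.00043 and on slide 2 by 1.83. The mean difference of 0.92 (standard error 0.59, 95% interval -0.51 to 2.35, adjusted p = 0.983 by limma) thus rests on slide 2. It was 0.215 without Meis1-KO 2 and 1.62 without Meis1-KO 1. Over the 4 primary granule genes, the median genotype difference was 0.17, against 0.082 over all tested probes, and it turned to -0.205 without scaling between arrays. Of the 4 genes, only *Elane* passed the criteria, and the intervals of *Mpo*, *Prtn3* and *Ctsg* include 0.

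**Figure D2:**
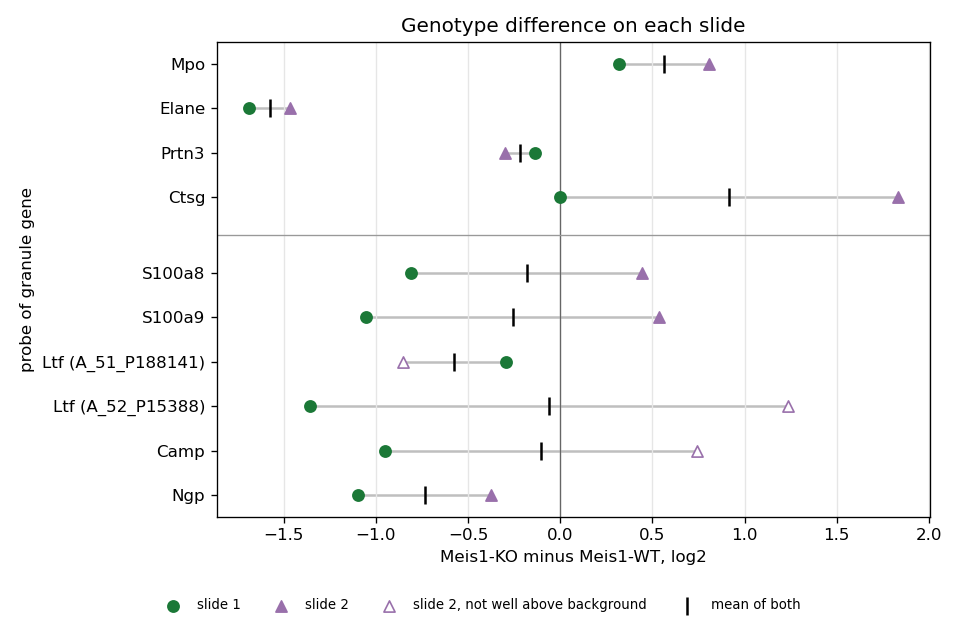
Log2 difference of Meis1-KO minus Meis1-WT (x axis) for each granule gene probe (y axis), on slide 1 (circles), on slide 2 (triangles) and as the mean of both (bars), 1 array per genotype and slide. *Elane* was lower on both slides (-1.69 and -1.46), whereas *S100a8* (-0.81 and 0.45) and *S100a9* (-1.05 and 0.54) changed sign from slide 1 to slide 2. Open triangles, at *Camp* and both *Ltf* probes, are differences of values not well above background and carry no direction.

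Between genotypes, none of the 3 later genes tested (*S100a8*, *S100a9* and *Ngp*) met the criteria, with or without the slide as a block. Their median difference was -0.26, as was that of all 5 later genes with the dim values of *Ltf* and *Camp* included, against 0.082 over all tested probes. The difference of *S100a9* was -0.26, with a standard error of 1.68 and a 95% interval of -4.34 to 3.82, that of *S100a8* -0.18 (standard error 1.27, interval -3.27 to 2.91) and that of *Ngp* -0.74 (standard error 1.53, interval -4.46 to 2.98). The 2 pools of a genotype differed more than the genotypes did, and these intervals include changes of several fold in either direction. On slide 1 alone, the 6 probes of the 5 later genes were all lower in Meis1-KO 1 than in Meis1-WT 1, by 0.29 to 1.36. On slide 2, *S100a8* and *S100a9* differed by 0.45 and 0.54 and *Ngp* by -0.38, and the other 3 probes were dim in both genotypes. The spread among these probes is no replicate error, since they share the same pools. Leaving out 1 array moved the median of the later genes to between -2.30 and 1.59.

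Between slides, all 6 probes of the later genes were higher on slide 1, that is in the first pool of both genotypes. The genotype was kept as a term in this fit, which was added after the values had been seen, and a probe was tested if either slide had it well above background on both arrays. Of 22593 such probes, 4.2% met the same criteria, 2.67% (604 probes) as higher on slide 1. *Camp* and both *Ltf* probes entered this test only through slide 1, where they are high, and of the 863 probes that were dim on both arrays of slide 2, 27.6% were called higher on slide 1, so their calls are not counted here. Among the 18860 probes well above background on all 4 arrays, 0.896% were called higher on slide 1. Of the granule genes among these, the 3 later genes were called and the 4 primary granule genes were not. The median difference between slides was 3.64 over the 3 later genes, -0.31 over the 4 primary granule genes and -0.134 over all probes measured on all arrays. Within Meis1-KO cells the 3 later genes had a median of 3.16 and within Meis1-WT cells of 4.00. With 1 array per genotype and slide, whether these differ was not tested.

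*S100a9* and *S100a8* encode the subunits of calprotectin, which binds calcium and withholds zinc and manganese from microbes. The log2 values of *S100a9* were 5.03 in Meis1-KO 1 and 6.09 in Meis1-WT 1, and 1.87 in Meis1-KO 2 and 1.34 in Meis1-WT 2. Before scaling, the signals were 4762 and 9785 on slide 1 and 325.4 and 382.1 on slide 2. Both slide 1 arrays lay far above both slide 2 arrays, a 15.5-fold difference (log2 difference 3.96, standard error 0.53, limma adjusted p = 0.0148). *S100a8* had values of 1.06 and 1.87 on slide 1 and of -1.22 and -1.67 on slide 2, in the order Meis1-KO, Meis1-WT. It followed the same order of arrays as *S100a9*, with Meis1-WT 1 highest, then Meis1-KO 1, Meis1-KO 2 and Meis1-WT 2, and a 7.53-fold difference between slides (2.91 on the log2 scale, standard error 0.51, adjusted p = 0.0561 by limma).

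*Ngp* encodes neutrophilic granule protein, a relative of the cathelicidins and cystatins stored in specific granules. Its values were 0.39 and 1.48 on slide 1 and -2.89 and -2.52 on slide 2, and all 4 were well above background. Before scaling, its signals on slide 2 were low, at 11.98 in Meis1-KO 2 and 26.46 in Meis1-WT 2. The difference was 3.64 (standard error 0.48, adjusted p = 0.0133 by limma), or 12.4-fold. *S100a8*, *S100a9* and *Ngp* met the criteria in each of 10 limma settings, but the size and the adjusted p depended on the setting. Their differences ranged from 1.74 to 3.23, 3.83 to 4.27 and 1.94 to 3.96, each lowest under normexp correction. The adjusted p of limma was below 0.05 in 5, 7 and 7 of these settings. Under quantile normalization the adjusted p of limma was 0.192, 0.122 and 0.122 in this order, without scaling 0.631, 0.445 and 0.451, and under normexp correction 0.395 for each. With slide as the only term it was 0.314, 0.231 and 0.287.

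*Camp* encodes the cathelicidin precursor, and its probe printed above was well above background only on slide 1, at -0.998 in Meis1-KO 1 and -0.047 in Meis1-WT 1. On slide 2 its values were -3.65 and -4.39 and not well above background. Set against a floor for those arrays, *Camp* was 7.64-fold higher on slide 1. For this floor, a dim array is set to the higher of the probe's own value and the lowest value of any probe well above background on that array. The floor is no strict limit. Under normexp background correction the log2 difference of *Camp* between slides was 1.12, and it did not meet the criteria.

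*Ltf* encodes lactoferrin, the iron-binding protein of specific granules, and was measured by a pair of probes that agreed in direction. Probe A_51_P188141 had values of -0.85 and -0.56 on slide 1 and of -4.86 and -4.01 on slide 2, where it was not well above background. Against the same floor it was 6.74-fold higher on slide 1. Probe A_52_P15388 had -2.08 and -0.72 on slide 1 and -3.95 and -5.19 on slide 2, again dim on slide 2. Against the floor it was 4.16-fold higher on slide 1. Under normexp correction the log2 differences between slides were 0.986 for A_51_P188141 and 0.648 for A_52_P15388, and neither met the criteria. On slide 1, where both probes were measured, Meis1-KO 1 lay below Meis1-WT 1 at each.

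The primary granule genes did not share this pattern. Their slide 1 minus slide 2 differences were 0.76 for *Mpo*, -0.14 for *Elane*, -0.62 for *Prtn3* and -0.49 for *Ctsg*, with standard errors of 0.47 to 0.55, and none met the criteria (adjusted p = 0.540 to 0.927 by limma). The median of the 5 later genes minus the median of the 4 primary granule genes was -0.52 on Meis1-KO 1 and 0.19 on Meis1-WT 1, but -4.77 on Meis1-KO 2 and -3.63 on Meis1-WT 2. The level of one probe cannot be set against another's, so only the change of this difference between arrays is meaningful. It was 4.25 between the Meis1-KO pools and 3.81 between the Meis1-WT pools, and fell to 2.15 and 2.13 under normexp background correction, where the value of Meis1-WT 1 turned to -0.109. Over the 3 later genes measured on all arrays it was 3.25 and 3.36. By the methods' t-test, which has no shared estimate of the spread, 0 of the 10 probes met the criteria between slides. Under normexp correction, 3 did (*S100a8*, *S100a9* and *Ngp*), and the median of the later genes was 1.74.

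**Figure D3:**
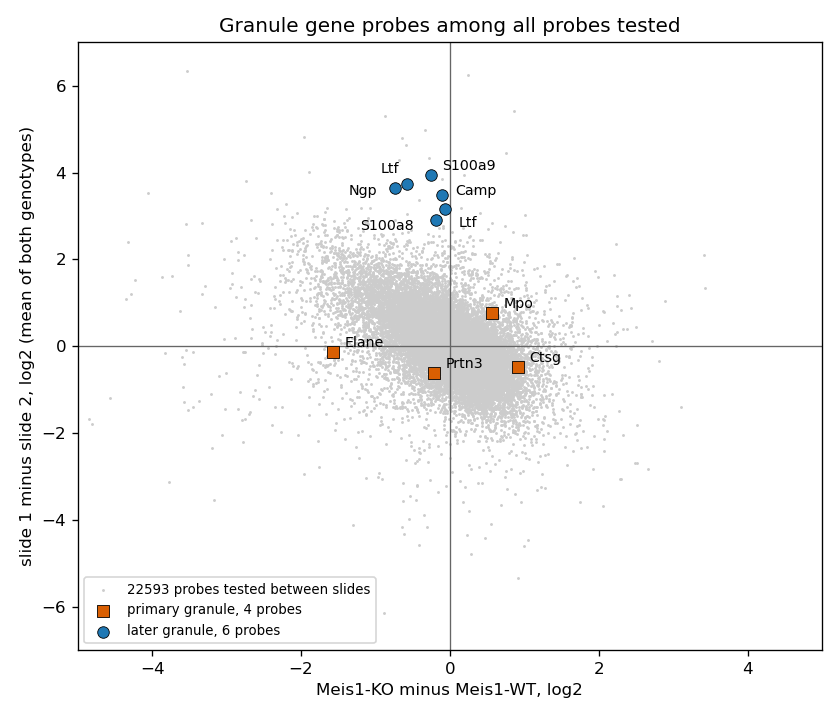
Log2 difference between slides (y axis, slide 1 minus slide 2) against the log2 difference between genotypes (x axis, Meis1-KO minus Meis1-WT), for the 22593 probes tested between slides (gray, 8 outside the axes), 4 probes of primary granule genes (squares) and 6 of later genes (circles). The later genes lie between 2.91 and 3.96 on the y axis with genotype differences of -0.74 to -0.062, of which *Camp* and *Ltf* rest on dim values on slide 2, while *Elane* lies at -1.58 on the x axis and -0.14 on the y axis.

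Other genes of the granule compartments were read in the same way from lists that name 1 probe, the brightest, for each gene. Of 16 other primary granule genes on the array, 15 were tested, among them *Ctsc*, whose product activates the granule serine proteases, and *Lyz2*, a lysozyme. None met the criteria in either comparison, and their median was 0.31 between genotypes and 0.023 between slides. Of 28 other later granule genes on the array, 12 were tested between genotypes and 0 met the criteria. Between slides, 13 were tested and 5 were higher on slide 1 (*Chi3l3*, *Mmp8*, *Retnlg*, *Ceacam1* and *Itgam*), with 0 lower. *Mmp8*, *Retnlg* and *Ceacam1*, which was dim on Meis1-KO 2, entered this test only through slide 1. Of the 9 measured on all arrays, 2 were higher (*Chi3l3* and *Itgam*), against 0.896% of all probes so measured. The 13 tested had a median of 0.30 between slides and the 28 on the array of 0.195, and several did not follow the later genes described above. *Cyba* and *Cybb*, the subunits of the membrane part of the NADPH oxidase, differed by -1.41 and 1.34, *Hp* by 0.28 and *Pglyrp1* by 0.30, and none of these met the criteria. *Lcn2*, a specific granule protein, was not well above background on any array.

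*Chi3l3*, which encodes the chitinase-like protein Ym1 of neutrophil granules and macrophages, had values of 1.76 and 2.45 on slide 1 and -1.59 and -2.59 on slide 2. All 4 were well above background, and the difference of 4.20 was of the size seen for *S100a9*. *Mmp8*, the neutrophil collagenase, and *Retnlg*, a resistin-like protein of mature neutrophils, were not well above background on slide 2. Against the floor used for *Camp*, *Mmp8* was 7.45-fold and *Retnlg* 9.53-fold higher on slide 1. *Itgam*, which encodes CD11b, was measured on all 4 arrays and differed by 1.54.

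Some markers of mature neutrophils, which the lineage gate of an LSK sort is meant to remove, were also higher on slide 1. Of 7 tested between slides, 4 met the criteria (*Mmp8*, *Retnlg*, *Itgam* and *Il1b*, of which *Il1b* is not on the list of later granule genes) and 0 were lower. *Mmp8*, *Retnlg* and *Il1b*, which was dim on Meis1-KO 2, entered the test through slide 1 alone. Of the 4 markers measured on all arrays, 1 met the criteria (*Itgam*), against the same background of 0.896%. *Csf3r*, the receptor of G-CSF, differed by 0.61, *Clec5a* by 0.48 and *Cxcr2*, a chemokine receptor, by 1.39, and these did not pass. Of the 9 on the array, 7 and 8 were well above background on slide 1, against 4 and 5 on slide 2. Their median log2 value was -1.03 on Meis1-KO 1, -0.58 on Meis1-WT 1 and -2.62 on Meis1-WT 2, and on Meis1-KO 2 the median marker was not well above background. *Stfa3*, a stefin of mature neutrophils, was not well above background on any array. Of 12 eosinophil, basophil and mast cell markers on the array, 10 and 11 were well above background on slide 1, against 5 and 6 on slide 2. Of the 5 measured on all arrays, 1 was higher on slide 1, *Prg2*, eosinophil major basic protein, with a difference of 1.90. Another 4 were called but dim on both arrays of slide 2. Among these, *Ear1*, an eosinophil ribonuclease, was 8.97-fold and *Epx*, eosinophil peroxidase, 2.73-fold higher on slide 1 against the same floor. Of the 8 erythroid markers measured on all arrays, 1 was higher on slide 1, *Hba-a1*, an alpha globin gene, by 4.35, and the median of the 8 was -0.345. Of the monocyte and macrophage markers, 1 of 8 was higher (*Csf1r*, dim on Meis1-KO 2), and the HSC and progenitor markers had 0 of 13 in either direction. Among 9 megakaryocyte markers, *Pf4*, measured on all arrays, differed by -1.65. *Gp5* and the T lineage marker *Cd3d* were well above background on slide 2 only. The part of these other cell types in the difference of the later granule genes was not tested.

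**Figure D4:**
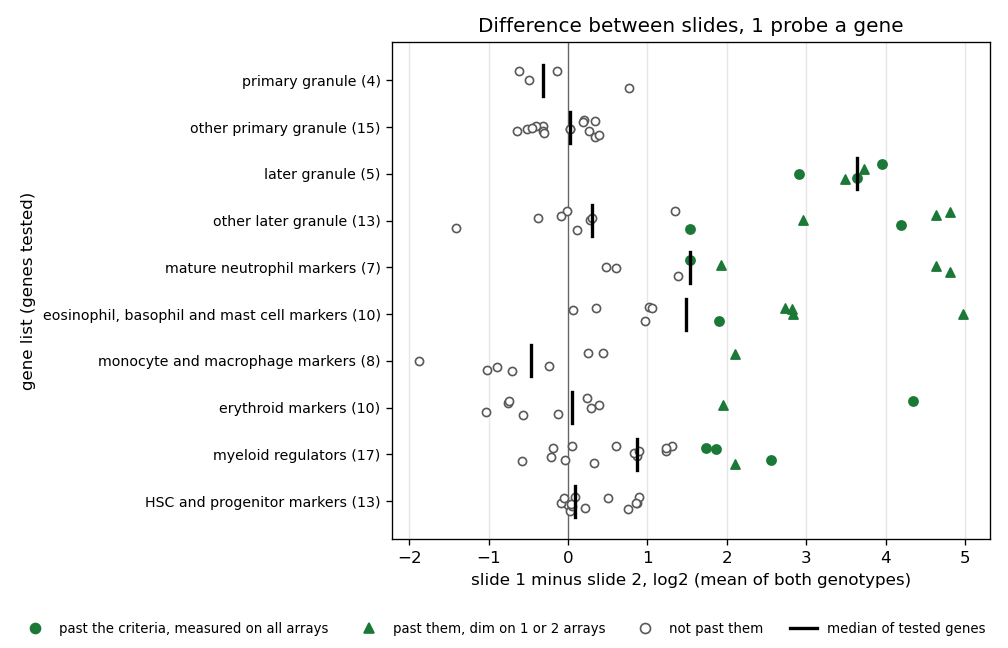
Log2 difference between slides (x axis, slide 1 minus slide 2, mean of both genotypes) for each gene of 10 lists (y axis, with the number of genes tested), 1 point a gene. Filled points met the criteria (triangles where at least 1 array was dim), open points did not, and bars are medians. The 5 later granule genes all lie above 2.9, 2 of them as triangles, the primary granule lists scatter around 0, and the HSC and progenitor markers have no filled point.

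Regulators of granulocyte and monocyte development formed a list of 18 genes on the array, of which 16 were tested between genotypes and 17 between slides. Between genotypes none met the criteria. *Cebpa*, the C/EBP factor needed for granulocyte commitment, differed by 0.31 between genotypes and 0.045 between slides, *Sfpi1*, which encodes PU.1, by 0.66 and -0.22, and *Gfi1*, a repressor required for neutrophil maturation, by -0.57 and 0.89. Between slides, 4 of 17 were higher on slide 1 (*Klf4*, *Csf1r*, *Jun* and *Csf2rb2*) and 0 lower. *Csf1r* was tested through slide 1 alone, and of the 14 measured on all arrays 3 were higher, against 0.896% of all probes so measured. *Klf4*, a factor of monocyte differentiation, had values of 1.18 and 2.12 on slide 1 and -1.33 and -0.47 on slide 2, a difference of 2.55.

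Genes whose pattern over the 4 arrays was most like that of the later granule genes were sought among 11059 genes well above background on all arrays, by the Euclidean distance between log2 values centered on their own mean. The reference was the mean of the 3 later genes measured on all arrays (*S100a8*, *S100a9* and *Ngp*). The 5 nearest were *Hba-a2* (distance 0.45), *1100001G20Rik* (0.85), *Hba-a1* (0.86), *Chi3l3* (0.92) and *Klf4* (1.21). *Hba-a2*, another alpha globin gene, had values of 1.48 and 2.14 on slide 1 and -1.81 and -2.26 on slide 2. The *Hba-a1* and *Hba-a2* copies are nearly identical, so their probes may share targets. *Hbb-b1*, a beta globin, did not share this pattern, with 6.58 and 6.33 on slide 1 and 7.95 and 4.49 on slide 2. For the 4 primary granule genes the mean pattern was nearly flat, although single members were not. *Elane* was lower in Meis1-KO cells and *Ctsg* was highest on Meis1-KO 2, so this mean does not describe each gene. The 5 genes nearest to the mean (*Glcci1*, *Psd3*, *Nme6*, *Ccdc28a* and *Uvrag*, at distances of 0.041 to 0.062) were nearly flat as well. With 4 points, likeness of pattern is a description only.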

How the data were processed

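RNA of LSK cells, 10 ng per pool, was measured on 4 one-color arrays, and samples were grouped from their titles. The authors deposited intensities of each spot, made with Feature Extraction 9.5.3.1 per the file headers (the submitters' notes name 9.1) and background-subtracted and detrended within each array, with surrogate values for 25.2% to 33.2% of spots. The deposited table of the series holds the same intensities, rounded. Probe positions are those of mm9 in the files. Control and outlier spots were left out, the 75th percentile of each array was subtracted from its log2 values, and limma 3.58.1 in R 4.3.3 (lmFit, eBayes) was fitted over all probes passing the filter, with genotype as the only term. P-values were adjusted by Benjamini-Hochberg over 22006 probes. The fit was tested on simulated data.

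The members and gene lists were chosen with earlier results of these data known. All members are named by every probe, a gene's main probe is the brightest, list genes are named where they meet the criteria or define a cell type, and the others named in the text were chosen after their values were seen. Genes of like pattern are the 5 nearest. Replicate numbers name slides, which the files record, and arrays of the same number deviated together from the means of their genotypes (correlation 0.266 across probes), so that the slide was also fitted as a block. Pools were the replicates, and with 2 per genotype the smallest two-sided p of an exact permutation test is 0.333. Precision is limited by this number and by the signal over background. Alternatives were other scalings, normexp (offset 50), the series table, other filters, outlier spots kept, an intensity trend, the methods' t-test, the slide block and each array left out. The lists of B lineage and plasma cell markers had 0 of 5 and 0 of 6 genes past the criteria between slides. A result on 1 list gene is not reported here.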

Additional observations from a re-analysis of the deposited data

How the results depend on the processing

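The counts over all probes moved most. With 132 lower and 30 higher probes in the main setting, normexp gave 45 and 2, probes well above background on all arrays 44 and 10, the slide as a replicate block 297 and 126, the methods' t-test 23 and 7, and an intensity trend 85 and 16. Higher probes were 14 without scaling and 101 without a filter. Leaving out 1 array gave 120 to 1573 lower and 43 to 789 higher probes, both highest without Meis1-KO 1. The lone array is then assumed to vary like the other genotype. The count of granule gene probes past the criteria was 1 (*Elane*) in the main setting and 0 under median scaling, normexp, no filter and an intensity trend, and 0 to 1 with 1 array left out. With the slide as a replicate block it was 1. Between slides it was 6, and 3 under normexp and with probes well above background on all arrays (where *Ltf* and *Camp*, called in the main setting through slide 1 alone, leave the test), and 0 by the methods' t-test. With an array left out, the fit of slide and genotype has no residual degree of freedom. With slide as the only term, *S100a8*, *S100a9* and *Ngp* met the criteria with any 1 array left out, and *Ctsg* was lower on slide 1 (-1.40) without Meis1-WT 2, where 10.9% of all probes were called higher.

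The median genotype difference of the primary granule genes became -0.205 without scaling, and ranged from -0.135 to 0.25 with 1 array left out. That of the later genes ranged from -2.30 to 1.59. The median difference between slides was 1.74 for the later genes under normexp, 3.16 to 4.00 with 1 array left out, and -0.392 to 0.202 for the primary granule genes. The sign of *Prtn3* turned under normexp (0.0773). With 1 array left out, genotype differences ranged from -0.565 to 0.13 for *Prtn3*, -1.95 to 1.59 for *S100a8*, -2.63 to 2.12 for *S100a9*, -2.58 to 1.43 for *Ltf*, -2.27 to 2.06 for *Camp* and -2.73 to 1.26 for *Ngp*. The slide as a block changed no call of a granule gene. Why values moved with array or setting was not tested.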
